A study of Mus musculus with 8 samples.

Results

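Neutrophils carry their antimicrobial and matrix-degrading proteins ready made in granules, and 32 genes of this kind were followed here in low-density and high-density neutrophils of mice with and without the histamine H2 receptor (H2R). The genes were taken by symbol, each matching 1 of the 49315 gene identifiers counted, by a rule that uses no measured value. The list itself was chosen with earlier results of these data known. They stand in the order in which granules form: 11 primary genes, 10 specific genes, and 11 genes of gelatinase granules and secretory vesicles. The grouping is that of the gene list and departs in places from the textbook one. CD63 is best known as a membrane protein of primary granules, Serpinb1a encodes a cytosolic inhibitor of granule proteases, and Stfa2l1 encodes a cytosolic cystatin-like protein.

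RNA was sequenced from C57BL/6 mice, an inbred laboratory strain, at 2 months of age. All cells were peritoneal neutrophils drawn into the cavity by casein, a milk protein, and then divided by density. The 4 groups were H2R-deficient low-density, H2R-deficient high-density, wild-type low-density and wild-type high-density cells, with 2 libraries each. The H2R-deficient libraries carry the numbers 1 and 2 and the wild-type libraries the numbers 2 and 4. H2R is a Gs-coupled receptor that raises cyclic AMP. The allele that removes it, the medium and limits of the density separation, and the number of animals behind each group of libraries are not given in the labels. Replicate spread may thus be technical, and p-values reflect that spread alone.

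Granule genes are switched on in succession as a neutrophil matures in the bone marrow. Primary granule proteins such as myeloperoxidase and elastase are made by promyelocytes, specific granule proteins such as lactoferrin by myelocytes and metamyelocytes, and gelatinase by band cells, while secretory vesicles form last. The transcripts of the early classes are largely lost before the cell leaves the marrow, and on activation the granules are released in roughly the reverse order of their formation.

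Each library held 19862716 to 24199215 counts assigned to genes, so that a floor of 3 counts corresponds to 0.124 to 0.151 CPM (counts scaled to library size). The summed level of 12 mature neutrophil markers, a list that holds Mmp9 from among the 32 genes, was 20125 to 29317 CPM in H2R-deficient low-density, 75954 to 79641 in H2R-deficient high-density, 34406 to 48452 in wild-type low-density and 70372 to 78038 in wild-type high-density libraries, and no marker of it was at 0 in all libraries. Without TMM scaling, the list held 3.01% and 3.94% of counts in H2R-deficient low-density and 5.86% and 5.91% in H2R-deficient high-density libraries. The shares were 4.28% and 5.4% in wild-type low-density and 6.07% and 5.68% in wild-type high-density libraries. B cell markers summed to 579 to 723 CPM and dendritic cell markers to 477 to 705 CPM in H2R-deficient low-density libraries, against 34.0 to 50.9 and 10.1 to 15.6 CPM in H2R-deficient high-density libraries. In wild-type libraries the same sums were 139 to 302 and 212 to 456 CPM at low density, against 40.2 to 46.1 and 8.66 to 31.9 CPM at high density. Hemoglobin and other erythroid markers summed to 0.111 to 1.49 CPM in low-density and 29.1 to 226 CPM in high-density libraries. In such bulk samples, fewer cells of a type and less RNA per cell cannot be told apart. Transcripts of Hrh2, which encodes H2R, were present in all libraries at 215 to 2003 counts. The genotype difference of Hrh2 did not pass the test at low density (log2 fold change -1.48 ± 0.55, SE, edgeR adjusted p = 0.196) or at high density (-1.60 ± 0.55, edgeR adjusted p = 0.192), and the labels do not say which part of the gene was deleted.

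Most of the primary class was nearly silent, whereas several specific and gelatinase genes were among the strongly expressed ones. Levels of different genes are compared here per kilobase of exon, as RPKM (CPM over TMM-scaled library sizes divided by exon length in kilobases). On that scale Lcn2, which encodes the iron-scavenging lipocalin 2, averaged 876 RPKM in H2R-deficient low-density, 2232 in H2R-deficient high-density, 1075 in wild-type low-density and 1486 in wild-type high-density cells. Lyz2, which encodes lysozyme and is also a macrophage gene, averaged 626, 1168, 1124 and 1895 RPKM in the same groups. Lcn2 ranked first of the 32 genes in both H2R-deficient groups and Lyz2 in both wild-type groups. Slpi, which encodes a protease inhibitor, stood at 740, 1365, 754 and 1266 RPKM in that order of groups, and Mmp8, which encodes neutrophil collagenase, at 500, 1433, 818 and 1159 RPKM. Toward the other end Mpo, which encodes myeloperoxidase, averaged 0.0171 to 0.0357 RPKM, and Bpi was lower in each group, at 0 to 0.0166 RPKM.

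**Figure D1:**
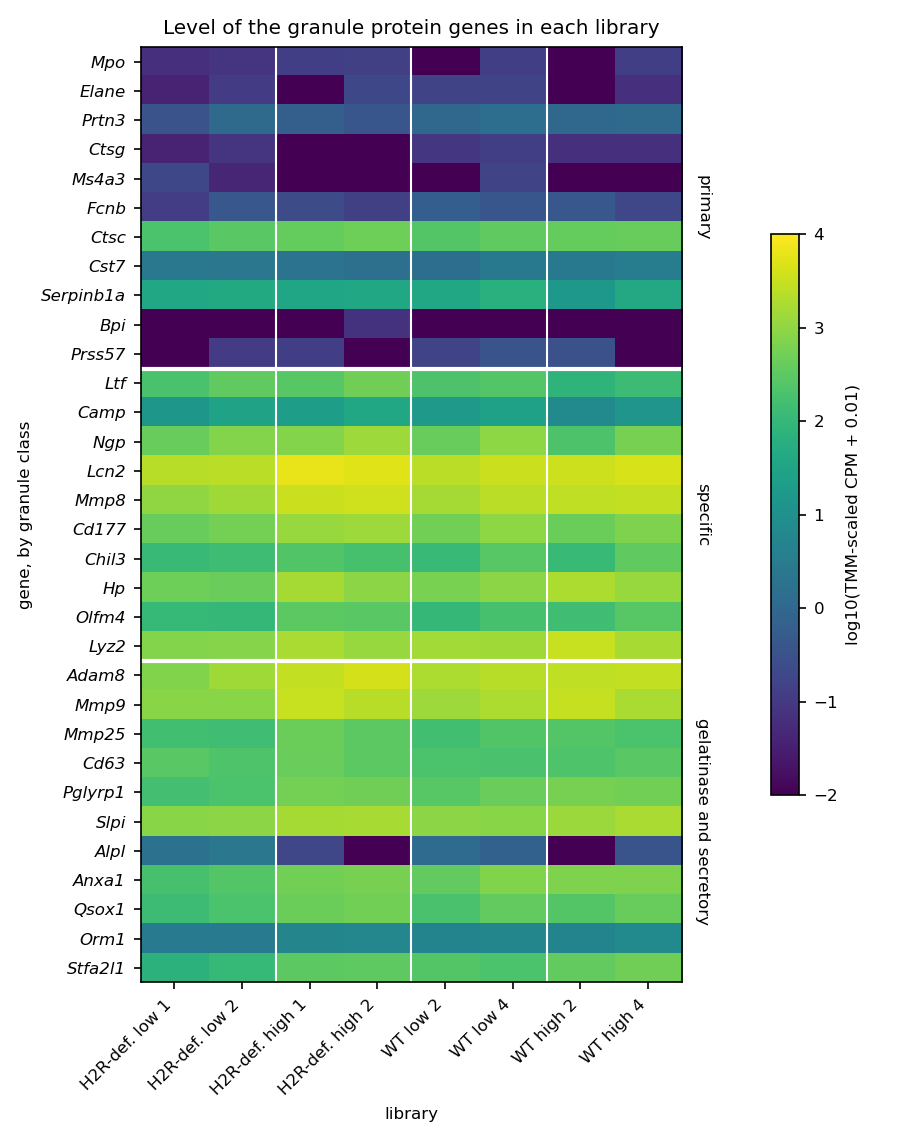
Level of each of the 32 genes (rows, by class) in each of the 8 libraries (columns), as log10 of CPM over TMM-scaled library sizes plus 0.01. Most of the primary rows are dark, near or below the floor of 3 counts, while Lcn2, Mmp8, Adam8 and Mmp9 are bright in every library.

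Of the primary genes, 6 had too few counts to pass the filter of the main test. Per library there were 0 to 3 counts of Mpo, 0 to 4 of Elane (neutrophil elastase), 0 to 3 of Ctsg (cathepsin G), 0 to 7 of Ms4a3, 0 to 1 of Bpi (a protein that binds bacterial lipopolysaccharide) and 0 to 9 of Prss57 (a serine protease). No difference between groups was detectable in these 6 genes at this depth. Prtn3 (proteinase 3) had 6 to 37 counts per library, and Plppr3 shares 159 of its exonic bases on the opposite strand. Fcnb (ficolin B, a lectin) had 2 to 15 counts. The 7 markers of granulocyte-monocyte progenitors, which precede the promyelocytes, summed to 105 to 168 CPM over the 8 libraries. The list shares Flt3 with the dendritic cell markers, Kit with the mast cell markers and Mki67 with the proliferation markers. Its sum is thus not specific to progenitors. At low against high density, Flt3 had log2 fold changes of 5.55 ± 0.58 in H2R-deficient and 4.68 ± 0.56 in wild-type cells. Those of Kit were -1.35 ± 0.25 and -0.93 ± 0.24.

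Calls in each comparison are summarised first, with the share of all 14909 tested genes that passed, in the same direction unless said otherwise. Of the 26 granule genes with enough counts, 16 were lower and 1 was higher in low-density than in high-density H2R-deficient cells (edgeR quasi-likelihood test, Benjamini-Hochberg adjusted p under 0.05), where 23.9% of all genes were lower and 30.0% higher. Their median log2 fold change was -0.89, against 0.10 for all genes. In wild-type cells 2 were lower and 0 higher at low density, where 4.15% of all genes were lower and 8.51% higher, and the median was -0.36, against 0.10 for all genes.

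Between genotypes edgeR called 0 of the 26 genes at low density, where 0.0% of all genes passed, and 0 at high density, where 0.0201% of all genes were higher and 0.188% lower. At an unadjusted p under 0.05, 0 granule genes were higher and 9 lower in H2R-deficient cells at low density, and 5 higher and 0 lower at high density. In all genes that unadjusted share, in either direction, was 21.0% at low and 18.7% at high density. By direction, 1596 of the 14909 genes were higher and 1532 lower at low density, and 1186 higher and 1602 lower at high density. DESeq2 called 0 higher and 4 lower at low density, where it called 6.14% of all genes in either direction, and 3 higher and 0 lower at high density, where it called 4.69% in either direction. Limma-voom called 0 granule genes at both, and 0.0537% and 0.0201% of all genes in either direction. The difference between the density effects of the genotypes was called in 0 of 26 granule genes and in 0.0% of all genes by edgeR. At an unadjusted p under 0.05 it was negative in 12 and positive in 0 granule genes, against 21.1% of all genes in either direction. Of the 14909 genes, 1272 were negative and 1878 positive for this difference at that p. DESeq2 called 4 granule genes and 6.64% of all genes, in either direction, for that difference, and limma-voom 0 and 0.0%.

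These directions depend on how libraries are scaled. The values use TMM scaling, which sets the middle of the gene distribution level. With total counts only, the median log2 fold change of all genes between low and high density was 1.0 in H2R-deficient and 0.67 in wild-type cells. On that scale 5 of the 16 lower genes remained lower in H2R-deficient low-density cells, namely Adam8, Mmp8, Mmp9, Pglyrp1 and Stfa2l1, and 2 genes were higher, Cst7 (1.37 ± 0.37, SE) and Alpl (5.31 ± 1.06), where 2.6% of all genes were lower and 51.6% higher. In wild-type low-density cells 0 were lower and 5 higher on that scale, where 0.832% of all genes were lower and 32.3% higher. Decreases below are therefore relative to the other genes of the same libraries.

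**Figure D2:**
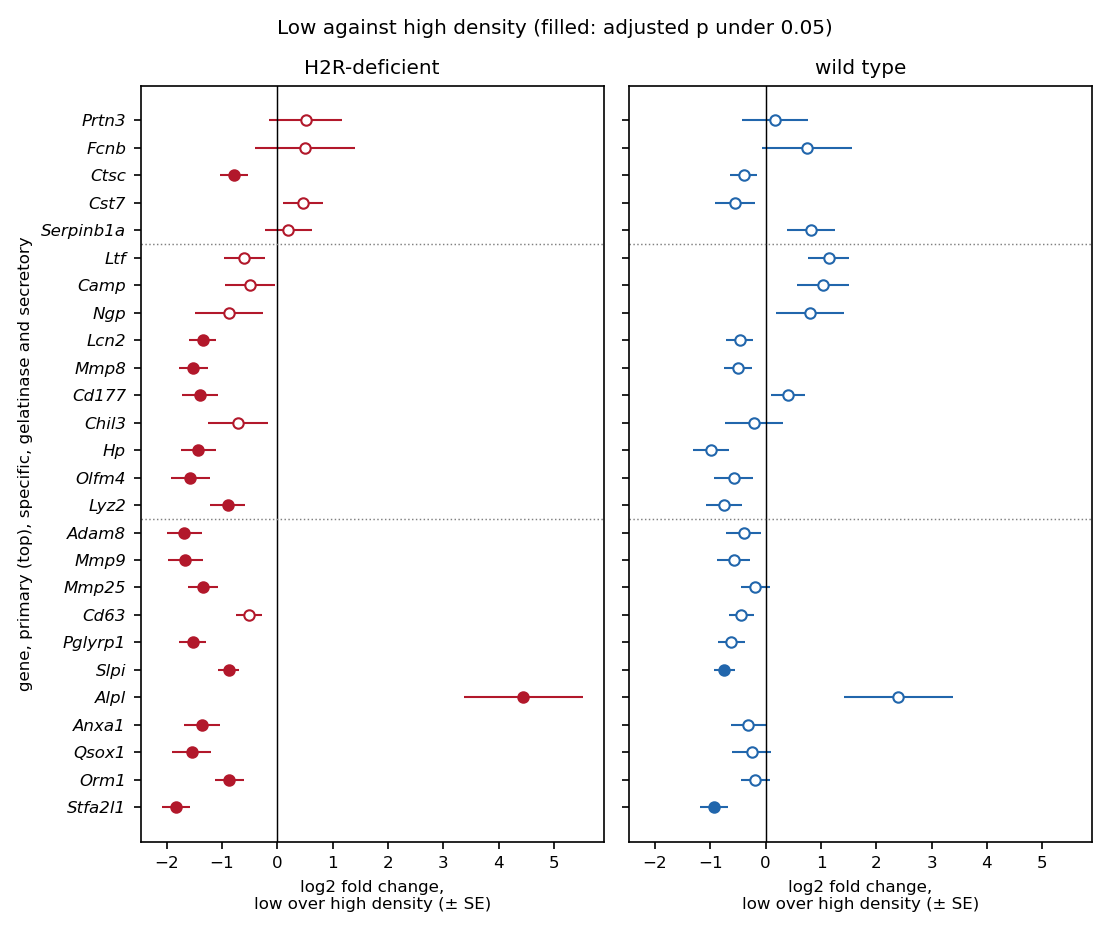
Log2 fold change of low over high density (x axis, ± SE) for the 26 tested genes in H2R-deficient cells (left) and wild-type cells (right), with filled points where the edgeR adjusted p was under 0.05. After TMM scaling 16 filled points lie below 0 on the left and Alpl lies above it, and on the right the filled points are Slpi and Stfa2l1; other scalings change this, as the plot of 3 scalings shows.

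In the primary class 1 of 5 tested genes was lower with low density in H2R-deficient cells, where 23.9% of all genes were lower. In wild-type cells 0 passed, where 4.15% of all genes were lower and 8.51% higher. The lower gene is Ctsc (cathepsin C, the protease that activates the granule serine proteases, also expressed by macrophages). It lay at 199 and 295 CPM in low-density and at 372 and 480 CPM in high-density H2R-deficient libraries. Low-density values were the lower ones without overlap, and the log2 fold change was -0.78 ± 0.25 (SE, edgeR adjusted p = 0.0234). The call was lost without high-density library 2 (-0.59, edgeR adjusted p = 0.139) or low-density library 1 (-0.53, edgeR adjusted p = 0.158). In wild-type cells Ctsc stood at 247 and 338 CPM at low density, against 373 and 400 CPM at high density, and did not pass (-0.40 ± 0.24, edgeR adjusted p = 0.274). The class median was 0.46 in H2R-deficient and 0.17 in wild-type cells.

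Serpinb1a, whose product inhibits elastase, cathepsin G and proteinase 3, lay at 37.4 and 44.5 CPM in low-density and 33.6 and 37.8 CPM in high-density H2R-deficient libraries. In wild-type libraries it lay at 36.6 and 64.1 CPM at low density, against 15.5 and 41.3 CPM at high density, so the groups overlapped in both genotypes. Its wild-type change was 0.82 ± 0.43 (edgeR adjusted p = 0.213), and it was called with total counts only (1.36 ± 0.42, edgeR adjusted p = 0.0367). Cst7, which encodes cystatin F, an inhibitor of cathepsin C, had 25 to 89 counts per library and was not called in either genotype.

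In the specific class 6 of 10 genes were lower in H2R-deficient low-density cells by TMM and 1 by total counts. Of all genes 23.9% were lower by TMM and 2.6% by total counts. The TMM class median was -1.12. The 6 were Lcn2, Mmp8, Cd177 (a surface partner of proteinase 3), Hp (haptoglobin, which binds hemoglobin), Olfm4 (olfactomedin 4) and Lyz2, with log2 fold changes between -1.57 and -0.90. Lcn2 had 2219 and 2376 CPM in low-density and 6492 and 5215 CPM in high-density H2R-deficient libraries (-1.35 ± 0.24, edgeR adjusted p = 0.00171). Mmp8 had 1013 and 1413 CPM at low density, against 3362 and 3590 CPM at high density (-1.52 ± 0.26, edgeR adjusted p = 0.00145). Both low-density libraries lay well under the high-density ones for each gene. Olfm4, which marks a subset of neutrophils, had 103 and 99.7 CPM at low density, against 307 and 293 CPM at high density (-1.57 ± 0.36, edgeR adjusted p = 0.0062).

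Lyz2 had 791 and 796 CPM in low-density and 1776 and 1181 CPM in high-density H2R-deficient libraries (-0.90 ± 0.32, edgeR adjusted p = 0.0388). That was the least stable of the 6 calls, passing in 3 of 8 fits that each left out 1 library, and it lost the call without H2R-deficient high-density library 1, either H2R-deficient low-density library or either wild-type low-density library. Its value without high-density library 1 was -0.57. The other 5 passed in all 8 such fits. With total counts only, Mmp8 alone of the 6 stayed called (-0.62 ± 0.21, edgeR adjusted p = 0.0278). Reads of Lyz2 and of its neighbour Lyz1, a near copy with 43 to 256 counts, may be split uncertainly.

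In wild-type cells 0 of the 10 specific genes passed edgeR's test for density, with a class median of -0.34. At an unadjusted p under 0.05, 1 was higher and 2 were lower, where 33.4% of all genes passed in either direction. DESeq2 called 1 higher and 1 lower and 18.6% of all genes in either direction, and limma-voom 0 and 10.5%. Lcn2 stood at 2347 and 3295 CPM at low density, against 3399 and 4398 CPM at high density (-0.47 ± 0.24, edgeR adjusted p = 0.196). Hp stood at 608 and 927 CPM at low density, against 1859 and 1181 CPM at high density (-0.99 ± 0.32, edgeR adjusted p = 0.0693). Neither gene's groups overlapped, and by TMM the sign was the one seen in H2R-deficient cells. With total counts only, Lcn2 was at -0.45 ± 0.21 in H2R-deficient and 0.09 ± 0.21 in wild-type cells, and Hp at -0.53 ± 0.30 and -0.42 ± 0.30.

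Chil3, which encodes a secreted chitinase-like lectin also made by macrophages, was not called in any of the 5 comparisons. It lay at 119 and 134 CPM in low-density and 230 and 184 CPM in high-density H2R-deficient libraries (-0.71 ± 0.54, edgeR adjusted p = 0.291). Wild-type libraries lay at 116 and 272 CPM at low density, against 115 and 334 CPM at high density (-0.21 ± 0.53, edgeR adjusted p = 0.808). The groups were apart in H2R-deficient cells and overlapped in wild-type cells.

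By TMM, Ltf, Camp, Ngp and Cd177 had values below 0 with density in H2R-deficient cells and above 0 in wild-type cells, unlike the other 6 genes of the class. With total counts only this held for Cd177 (-0.50 ± 0.27 and 0.95 ± 0.28), whereas the values of Ltf (0.29 ± 0.34 and 1.70 ± 0.35), Camp (0.39 ± 0.41 and 1.59 ± 0.43) and Ngp (0.019 ± 0.59 and 1.33 ± 0.60) were above 0 in both genotypes. Scaled to mature neutrophil markers, an alternative described below, all 4 were above 0 in both. Ltf encodes lactoferrin, an iron-binding protein and the defining content of specific granules. Camp encodes the cathelicidin antimicrobial peptide, and Ngp encodes neutrophilic granule protein, a mouse relative of the cathelicidins and cystatins. Ltf, Camp and Ngp lie on chromosome 9 of GRCm38, Ltf (ENSMUSG00000032496) at chr9:111019271-111042767 on the plus strand, Camp (ENSMUSG00000038357) at chr9:109847379-109849617 on the minus strand and Ngp (ENSMUSG00000032484) at chr9:110419747-110423012 on the plus strand. Cd177 (ENSMUSG00000052212) lies at chr7:24743983-24760311 on the minus strand. The promoter windows of these 4 genes are shown because their values leaned alike by TMM. Each runs from 250 bases before to 50 bases after the transcription start of RefSeq (GRCm38.p6), read 5′ to 3′ on the gene's strand. Capitals mark matches on either strand to the C/EBP motif TTNNGCAA or to the TATA box TATAAA. The capitals in the Cd177 window are a match to the TATA box letters, starting at -40 from the transcription start. The windows span chr9:111019042-111019341 for Ltf, chr9:109849407-109849706 for Camp, chr9:110419558-110419857 for Ngp and chr7:24760262-24760561 for Cd177.
Ltf: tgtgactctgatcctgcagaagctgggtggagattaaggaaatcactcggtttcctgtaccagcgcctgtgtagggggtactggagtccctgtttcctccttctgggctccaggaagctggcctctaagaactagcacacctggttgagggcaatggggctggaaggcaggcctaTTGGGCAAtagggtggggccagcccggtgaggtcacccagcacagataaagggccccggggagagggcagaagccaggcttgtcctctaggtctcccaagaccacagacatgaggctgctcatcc
Camp: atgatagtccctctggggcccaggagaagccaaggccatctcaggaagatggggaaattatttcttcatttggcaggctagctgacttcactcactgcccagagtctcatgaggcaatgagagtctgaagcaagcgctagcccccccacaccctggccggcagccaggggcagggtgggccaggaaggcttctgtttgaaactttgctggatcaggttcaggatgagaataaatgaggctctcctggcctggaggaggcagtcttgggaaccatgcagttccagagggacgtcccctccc
Ngp: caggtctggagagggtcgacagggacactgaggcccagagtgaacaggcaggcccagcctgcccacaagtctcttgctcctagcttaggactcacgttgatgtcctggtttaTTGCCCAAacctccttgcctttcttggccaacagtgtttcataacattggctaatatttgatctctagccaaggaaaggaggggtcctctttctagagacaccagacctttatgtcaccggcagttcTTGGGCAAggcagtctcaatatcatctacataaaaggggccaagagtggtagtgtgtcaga
Cd177: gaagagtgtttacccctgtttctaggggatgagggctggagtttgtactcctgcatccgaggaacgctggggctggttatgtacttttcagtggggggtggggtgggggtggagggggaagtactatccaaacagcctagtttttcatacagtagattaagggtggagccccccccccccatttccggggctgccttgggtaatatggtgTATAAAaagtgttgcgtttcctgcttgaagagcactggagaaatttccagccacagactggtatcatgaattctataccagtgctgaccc

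Ltf holds 1 match, Camp 0, Ngp 2 and Cd177 0. C/EBP factors, among them C/EBPε, are needed for specific granule genes. A match to this motif stood in 4 of 9 specific promoters (44.4%), 3 of 9 primary (33.3%) and 3 of 10 gelatinase and secretory promoters (30.0%), against 10.8% of all 32851 promoters of 300 bases in the RefSeq table. The motif GAGGAAG of PU.1, a myeloid factor, stood in 6 of 9 primary, 3 of 9 specific and 3 of 10 gelatinase and secretory promoters, against 13.6% of all. The letters TATAAA of a TATA box stood, at any position, in 7 of the 28 promoters (25.0%), against 13.6% of all. In the 28 promoters these matches started between -237 (Ctsg) and -2 (Bpi) from the transcription start, so not all need be working TATA boxes. The motifs were searched on both strands, and matches of different motifs were allowed to overlap. Of the 32 genes, 27 had a promoter entry, Alpl with more than 1. These are counts of letter matches and carry no test.

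Ltf lay at 187 and 335 CPM in low-density and 280 and 512 CPM in high-density H2R-deficient libraries, so the groups overlapped (-0.60 ± 0.37, edgeR adjusted p = 0.194). In wild-type libraries Ltf lay at 213 and 247 CPM at low density, above 79.9 and 129 CPM at high density (1.14 ± 0.37, edgeR adjusted p = 0.0737). The density effects of the genotypes differed by -1.74 ± 0.52 on the log2 scale, which did not pass (edgeR adjusted p = 0.121). Camp followed the same order at lower levels. It had 14.6 and 29.2 CPM in low-density and 21.5 and 40.4 CPM in high-density H2R-deficient libraries, and 16.6 and 26.6 CPM in low-density and 7.42 and 13.6 CPM in high-density wild-type libraries. Its difference of density effects was -1.54 ± 0.65 (edgeR adjusted p = 0.224).

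Ngp also varied between libraries of a group. It had 395 and 758 CPM in low-density and 789 and 1320 CPM in high-density H2R-deficient libraries. Wild-type libraries had 411 and 976 CPM at low density, against 210 and 588 CPM at high density, and these overlapped. The density effects differed by -1.67 ± 0.87 (edgeR adjusted p = 0.316). In each group, the higher of the 2 libraries for Ltf was also the higher one for Camp and for Ngp. With total counts only, Ltf and Camp were called higher with low density in wild-type cells (1.70 ± 0.35 and 1.59 ± 0.43, edgeR adjusted p = 0.00789 and 0.0218), and so was Cd177 (0.95 ± 0.28, edgeR adjusted p = 0.0271).

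Cd177 had the lowest p of the granule genes for the difference of density effects. It lay at 393 and 567 CPM in low-density and 1197 and 1337 CPM in high-density H2R-deficient libraries (-1.40 ± 0.32, edgeR adjusted p = 0.00565). In wild-type libraries it lay at 537 and 949 CPM at low density, against 450 and 675 CPM at high density, with overlap (0.40 ± 0.31, edgeR adjusted p = 0.391). The effects differed by -1.80 ± 0.44 (edgeR adjusted p = 0.0931), and the direction was the same in 8 of 8 fits that left out 1 library, at -2.15 to -1.32. Over the class, 10 of 10 specific genes had a negative difference with a median of -1.0, where 7154 of 14909 genes were negative and the median was 0.04. The same was seen in 10 of 11 gelatinase and secretory genes (median -0.91) and in 12 of 12 mature neutrophil markers (median -0.77). Of the 10 specific genes 9 were negative with total counts only, and scaled to mature neutrophil markers 7 of 10.

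**Figure D3:**
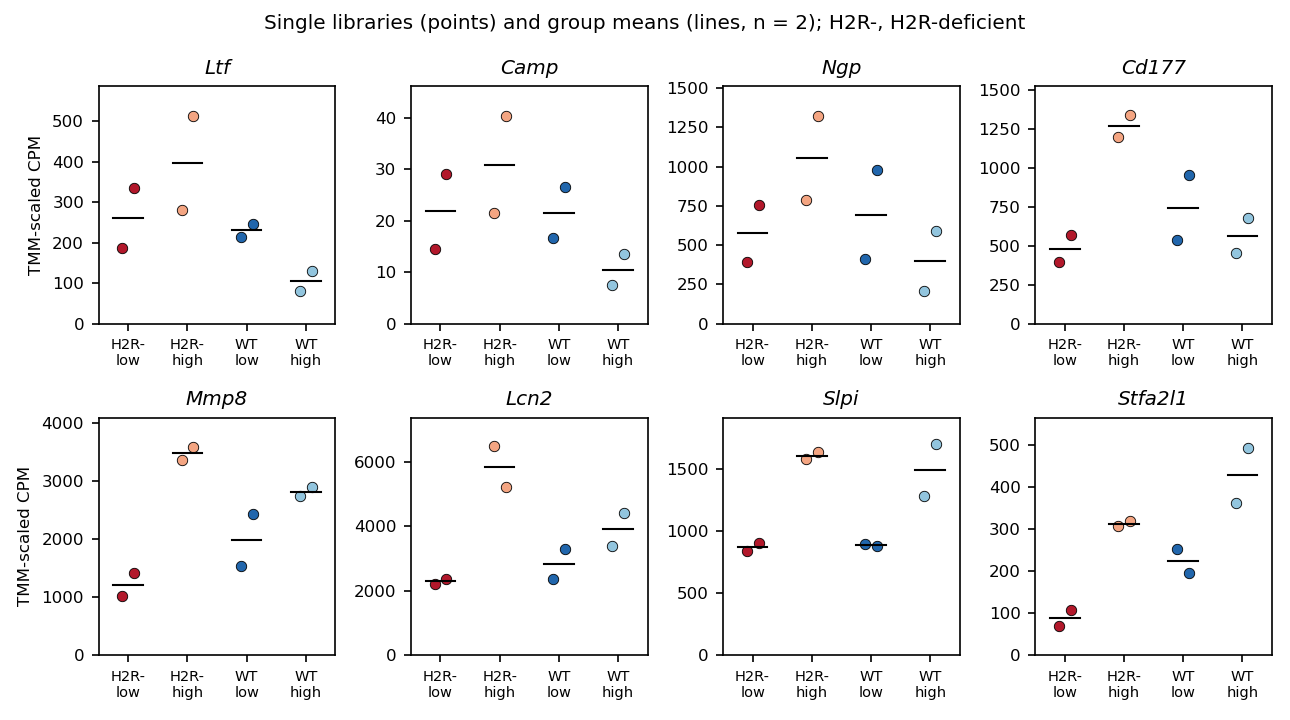
CPM over TMM-scaled library sizes (y axes, from 0) of 8 granule genes in single libraries (points) with group means (lines, n = 2) for H2R-deficient low, H2R-deficient high, wild-type low and wild-type high density. Ltf, Camp, Ngp and Cd177 are lowest on average in wild-type high-density cells or in H2R-deficient low-density cells, and on this scale Slpi and Stfa2l1 are lower at low density in both genotypes.

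The gelatinase and secretory class had the lowest class median in H2R-deficient cells, -1.36. At low density 9 of its 11 genes were lower by TMM and 4 by total counts, against 23.9% and 2.6% of all genes. Gelatinase itself, Mmp9, had 837 and 872 CPM in low-density and 3184 and 2215 CPM in high-density H2R-deficient libraries (-1.66 ± 0.31, edgeR adjusted p = 0.00217). Adam8, a membrane metalloprotease, had 735 and 1417 CPM at low density, against 2833 and 4083 CPM at high density (-1.68 ± 0.32, edgeR adjusted p = 0.00243). Pglyrp1, which encodes a protein that binds bacterial peptidoglycan, had 160 and 205 CPM, against 559 and 494 CPM (-1.53 ± 0.24, edgeR adjusted p = 0.00106). For each of these genes both low-density libraries lay below both high-density libraries. All 3 also passed with total counts only, at -0.80 ± 0.27 for Adam8, -0.76 ± 0.28 for Mmp9 and -0.63 ± 0.20 for Pglyrp1.

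The remaining 6 lower genes of the class were Mmp25 (a membrane-anchored metalloprotease), Slpi, Anxa1 (annexin A1, an anti-inflammatory phospholipid-binding protein), Qsox1 (a sulfhydryl oxidase), Orm1 (an acute-phase glycoprotein) and Stfa2l1. Mmp25, Anxa1 and Qsox1 changed by -1.35 ± 0.27, -1.36 ± 0.32 and -1.55 ± 0.35. Orm1 was scarce, at 85 to 148 counts per library, and changed by -0.87 ± 0.26. The Orm1 call was lost without H2R-deficient high-density library 2 or either H2R-deficient low-density library (edgeR adjusted p = 0.0872 to 0.0904). Cd63 was lower without overlap, at 290 and 224 CPM at low density, against 431 and 301 CPM at high density, and did not pass (-0.51 ± 0.23, edgeR adjusted p = 0.0901).

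Slpi and Stfa2l1 were the genes that passed in both genotypes after TMM scaling. Slpi (ENSMUSG00000017002, chr2:164354070-164389095, minus strand) encodes an inhibitor of elastase and cathepsin G that is also made by macrophages. Stfa2l1 (ENSMUSG00000059657, chr16:36156811-36161948, plus strand) belongs to a cluster of stefin A genes of near-identical sequence, so its reads are uncertain against those of its relatives. Their promoter windows, defined as above, span chr2:164356458-164356757 on the minus strand for Slpi and chr16:36156561-36156860 on the plus strand for Stfa2l1. They are shown for comparison with the windows above, and Slpi holds 1 C/EBP match and Stfa2l1 0.
Slpi: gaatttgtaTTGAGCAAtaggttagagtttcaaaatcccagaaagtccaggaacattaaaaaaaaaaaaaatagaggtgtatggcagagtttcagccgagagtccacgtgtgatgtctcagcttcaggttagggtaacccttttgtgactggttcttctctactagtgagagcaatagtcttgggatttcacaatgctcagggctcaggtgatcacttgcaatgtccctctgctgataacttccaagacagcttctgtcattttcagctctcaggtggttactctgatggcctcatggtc
Stfa2l1: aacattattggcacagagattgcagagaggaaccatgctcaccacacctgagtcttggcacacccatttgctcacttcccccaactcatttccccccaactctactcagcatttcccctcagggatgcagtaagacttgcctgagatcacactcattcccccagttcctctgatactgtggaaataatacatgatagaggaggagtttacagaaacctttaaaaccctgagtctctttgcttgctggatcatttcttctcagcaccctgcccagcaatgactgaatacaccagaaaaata

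Slpi had 841 and 904 CPM in low-density and 1585 and 1636 CPM in high-density H2R-deficient libraries (-0.88 ± 0.19, edgeR adjusted p = 0.00437). Wild-type libraries held 899 and 881 CPM at low density, against 1286 and 1701 CPM at high density (-0.75 ± 0.19, edgeR adjusted p = 0.0369). The genotypes overlapped at each density. Stfa2l1 had 69.8 and 106 CPM in low-density and 307 and 318 CPM in high-density H2R-deficient libraries (-1.83 ± 0.26, edgeR adjusted p = 0.000613), the lowest adjusted p of the granule genes. In wild-type libraries it had 253 and 196 CPM at low density, against 362 and 492 CPM at high density (-0.93 ± 0.25, edgeR adjusted p = 0.0414). The difference of the density effects was -0.14 ± 0.27 for Slpi and -0.90 ± 0.35 for Stfa2l1, and neither passed (edgeR adjusted p = 0.803 and 0.188).

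Both wild-type calls were fragile. Slpi passed in 0 and Stfa2l1 in 2 of 8 fits that left out 1 library, and neither passed with total counts only (-0.18 ± 0.19 and -0.35 ± 0.25). In H2R-deficient cells both passed in all 8. Of the relatives of Stfa2l1, Stfa1, Stfa2, Stfa3 and BC100530 were lower in H2R-deficient low-density cells as well, at -1.63 ± 0.30, -1.38 ± 0.45, -1.27 ± 0.46 and -1.40 ± 0.41. In wild-type cells 0 of these 4 passed edgeR's test, and Stfa1 was lower at an unadjusted p under 0.05 (-0.82 ± 0.29, edgeR adjusted p = 0.0831).

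Alpl was the 1 granule gene that was higher at low density in H2R-deficient cells. It encodes tissue-nonspecific alkaline phosphatase, a classical marker of secretory vesicles in human neutrophils, and lies at chr4:137741733-137796384 (ENSMUSG00000028766). It had 1.85 and 2.33 CPM in low-density and 0.175 and 0 CPM in high-density H2R-deficient libraries, which is 133 counts against 3. The ratio after scaling was 22.6, with an exact 95% interval of 7.58 to 111 that covers counting error only, and the edgeR adjusted p was 0.00734. In wild-type libraries it had 1.21 and 0.704 CPM at low density, against 0 and 0.354 CPM at high density, a ratio of 5.42 (95% interval 2.32 to 15.5) that did not pass (edgeR adjusted p = 0.127). Its fitted log2 fold change, which depends on the handling of 0 counts, was 4.45 in H2R-deficient cells and stayed called at 3.54 to 8.62 when 1 library was left out, the ends being without high-density library 2 and without high-density library 1. In wild-type cells it was 2.40, ranged from 1.42 without high-density library 2 to 7.50 without high-density library 4, and was called in that last fit (edgeR adjusted p = 0.0447). B cell and dendritic cell markers were higher in the same low-density libraries, and their part in the Alpl result was not tested.

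The decreases ran alongside a decrease of neutrophil genes in general. In H2R-deficient low-density cells 12 of 12 mature neutrophil markers were lower with a median of -1.66, and in wild-type low-density cells 4 of 12 were lower with a median of -0.86. The gelatinase and secretory median was -1.36 and the specific median -1.12 in H2R-deficient cells, and -0.40 and -0.34 in wild-type cells. In an alternative chosen after the data were seen, libraries were scaled to 11 of these markers, leaving out Mmp9. Then 0 granule genes were lower and 10 higher with low density in H2R-deficient cells, where 0.241% of all genes were lower and 72.8% higher. In wild-type cells 0 were lower and 5 higher, where 0.423% of all genes were lower and 44.4% higher. Serpinb1a, Ltf, Camp and Alpl were among the higher ones in both genotypes, with Ltf at 0.99 ± 0.32 in H2R-deficient and 2.01 ± 0.33 in wild-type cells (edgeR adjusted p = 0.00558 and 1.18e-05). All 6 B cell markers and 6 of 8 dendritic cell markers were higher in H2R-deficient low-density cells, and all 6 and 5 of 8 in wild-type low-density cells. The part of such cells in the granule results was not tested.

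**Figure D4:**
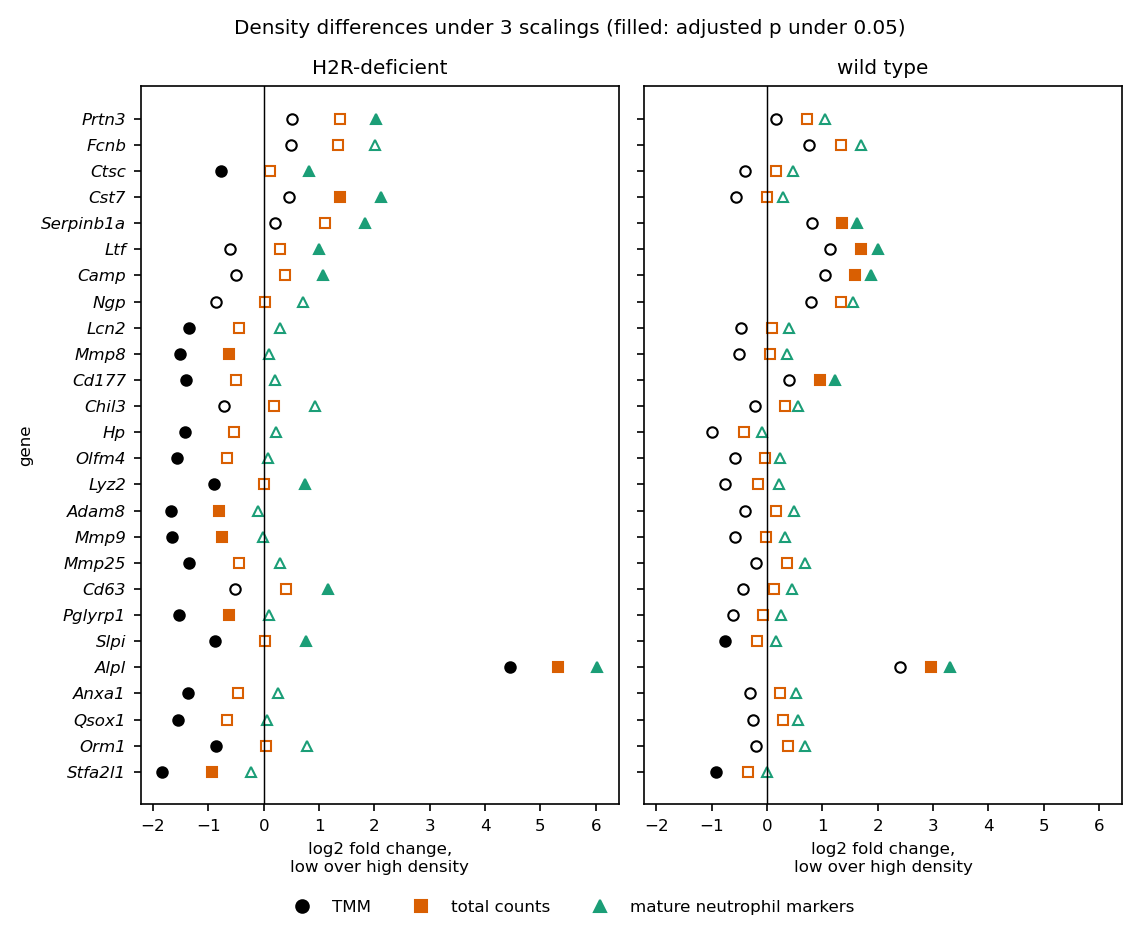
Log2 fold change of low over high density (x axis) for the 26 tested genes in H2R-deficient (left) and wild-type cells (right) under TMM scaling (circles), total counts only (squares) and scaling to 11 mature neutrophil markers (triangles), filled where the edgeR adjusted p was under 0.05. Each gene moves to the right from circle to triangle, and the 16 genes lower by TMM are not lower by the marker scaling.

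Between genotypes at high density the largest differences among the granule genes lay in the specific class. Ltf had 280 and 512 CPM in H2R-deficient high-density libraries, against 79.9 and 129 CPM in wild-type high-density libraries (1.92 ± 0.38, edgeR adjusted p = 0.0869). Camp had 21.5 and 40.4 CPM, against 7.42 and 13.6 CPM (1.56 ± 0.47, edgeR adjusted p = 0.156). Cd177 had 1197 and 1337 CPM, against 450 and 675 CPM (1.17 ± 0.32, edgeR adjusted p = 0.123). Ngp had 789 and 1320 CPM, against 210 and 588 CPM (1.40 ± 0.62, edgeR adjusted p = 0.285). The genotypes did not overlap in these 4 genes, which held in the same direction for 21.1% of all genes, and none of the 4 passed in edgeR. DESeq2 called Ltf, Camp and Cd177 (DESeq2 adjusted p = 1.56e-05, 0.0109 and 0.00685), and so did the marker scaling (2.02 ± 0.33, 1.65 ± 0.38 and 1.28 ± 0.29).

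Leaving out 1 library at a time, Ltf ranged from 1.42 to 2.31 and Camp from 1.03 to 2.06 at high density, and neither passed in any of the 8 fits. The medians of the primary, specific and gelatinase and secretory classes were -0.68, 0.54 and 0.11 over 5, 10 and 11 tested genes, against -0.05 for all genes. The primary median is the value of Fcnb (-0.68 ± 0.96), which had 6 counts in H2R-deficient and 10 in wild-type high-density libraries. Differences between the class medians were not tested. Markers of mature neutrophils had a median of 0.04 there, with 0 of 12 called. Of 12 macrophage and monocyte markers 2 were called lower in H2R-deficient high-density cells, where 0.188% of all genes were lower. One was Apoe (-1.48 ± 0.19, edgeR adjusted p = 0.0374). All 12 values were negative with a median of -1.72, where 7919 of 14909 genes were negative. The list summed to 347 to 528 CPM in H2R-deficient and 630 to 764 CPM in wild-type libraries. Lyz2, which macrophages also express, had 1776 and 1181 CPM in H2R-deficient high-density and 3196 and 1601 CPM in wild-type high-density libraries (-0.70 ± 0.32, edgeR adjusted p = 0.278). The part of such cells in these differences was not tested.

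At low density 21 of the 26 values were negative by TMM, where 6991 of 14909 genes were negative. With total counts only 3 of the 26 values had the other sign, and scaled to mature neutrophil markers 16 had it. The gelatinase and secretory class held the larger differences. Stfa2l1 had 69.8 and 106 CPM in H2R-deficient low-density libraries, against 253 and 196 CPM in wild-type low-density libraries (-1.35 ± 0.25, edgeR adjusted p = 0.104). Anxa1 had 182 and 249 CPM, against 359 and 744 CPM (-1.36 ± 0.32, edgeR adjusted p = 0.108). Pglyrp1 had 160 and 205 CPM, against 277 and 434 CPM (-0.96 ± 0.24, edgeR adjusted p = 0.11). The genotypes did not overlap in these 3 genes, which held in the same direction for 26.6% of all genes, and none of the 3 passed in edgeR. Anxa1 passed in 1 fit, that without wild-type low-density library 2 (-1.79, edgeR adjusted p = 0.0301). Ltf and Camp had close values in both genotypes at low density (0.18 ± 0.37 and 0.016 ± 0.45), and Slpi likewise (-0.029 ± 0.19). The class medians were -0.30, -0.55 and -0.80 in the order of formation, against 0.05 for all genes and -0.87 for the mature neutrophil markers, of which 0 of 12 passed. The primary median rests on 5 genes and is the value of Serpinb1a (-0.30 ± 0.42). Differences between these medians were not tested.

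**Figure D5:**
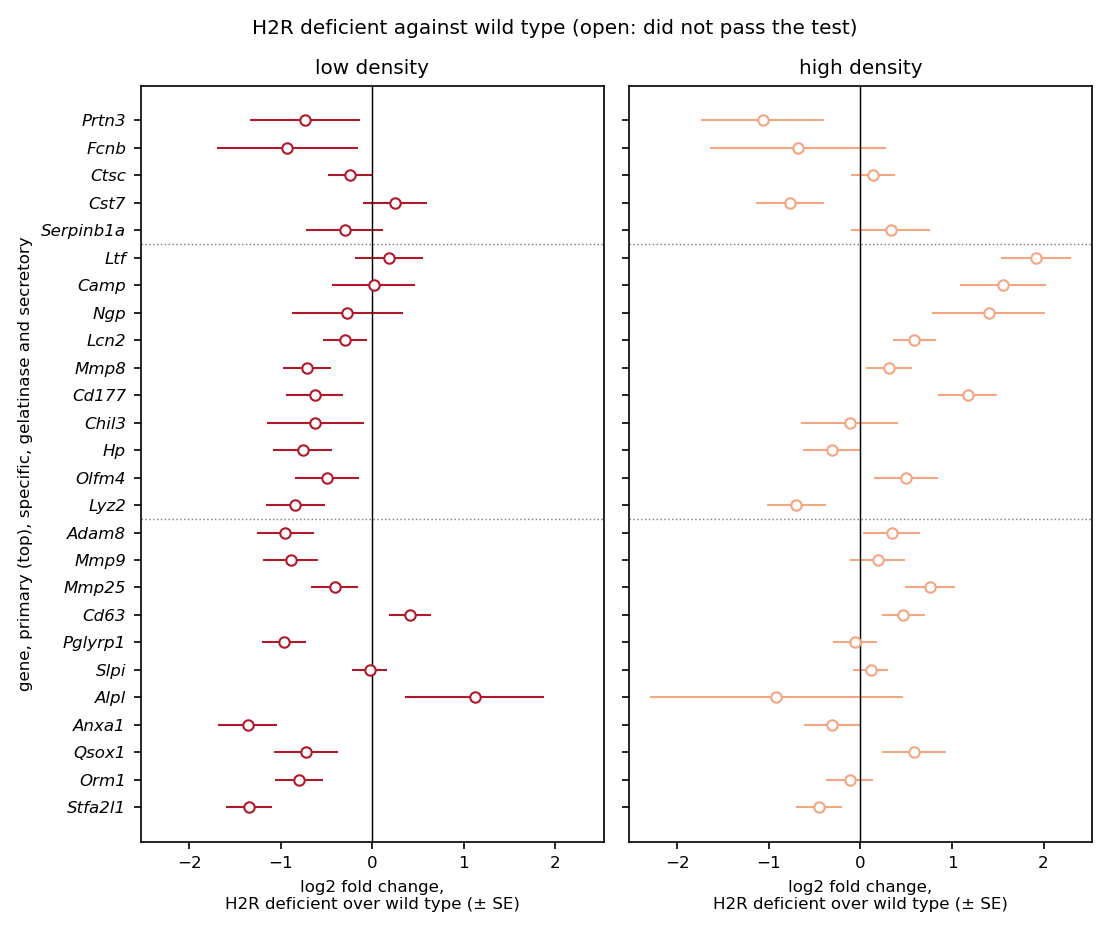
Log2 fold change of H2R-deficient over wild-type cells (x axis, ± SE) for the 26 tested genes at low density (left) and high density (right); open points did not pass. Ltf, Camp, Ngp and Cd177 lie furthest right at high density, and Anxa1 and Stfa2l1 furthest left at low density.

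Genes that act on granules were read in the same way. Of 20 tested genes for other granule and secretory vesicle proteins, 14 were lower and 4 higher in H2R-deficient low-density cells, where 23.9% of all genes were lower and 30.0% higher. The counts became 1 lower and 6 higher with total counts only, where 2.6% of all genes were lower and 51.6% higher. Scaled to mature neutrophil markers they became 0 lower and 11 higher, where 0.241% of all genes were lower and 72.8% higher. The lowest adjusted p-values belonged to Itgb2 and Itgam, the chains of the adhesion receptor Mac-1 (-1.20 ± 0.18 and -1.31 ± 0.19), and to the formyl peptide receptors Fpr2 and Fpr1 (-1.28 ± 0.19 and -1.25 ± 0.21). Among the higher genes, named after their values were seen, were Arg1 (arginase 1, 1.19 ± 0.31), the matrix enzyme Hpse (heparanase, 1.70 ± 0.32) and the lysosomal enzyme Gusb (0.92 ± 0.19). In wild-type low-density cells 2 of the 20 were lower, Fpr2 (-0.67 ± 0.19) and Ctsz (-0.64 ± 0.17), and 0 higher. There 4.15% of all genes were lower and 8.51% higher.

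Of 11 genes of granule exocytosis, 7 were lower and 1 higher in H2R-deficient low-density cells, against the same shares of all genes, beside 12 of 12 mature neutrophil markers lower. By total counts 1 was lower and 3 higher, where 2.6% of all genes were lower and 51.6% higher. By the marker scaling 0 were lower and 6 higher, where 0.241% of all genes were lower and 72.8% higher. Among the lower ones were the fusion proteins Stx11 (-1.55 ± 0.22), Snap23 (-1.28 ± 0.21) and Vamp8 (-0.84) and the syntaxin-binding Stxbp2 (-1.07 ± 0.19). The higher one was Rab27b (3.43 ± 0.77), a small GTPase at only 1 to 42 counts per library. In wild-type low-density cells Stx11 (-0.93 ± 0.22) and Snap23 (-0.75 ± 0.20) were lower and 0 were higher, against 4.15% and 8.51% of all genes. Of 8 transcription factors of granule genes, 5 were lower in H2R-deficient low-density cells, where 23.9% of all genes were lower. With total counts only 1 was lower, against 2.6% of all genes, and by the marker scaling 0, against 0.241%. The 5 were Cebpb (-1.55 ± 0.20), Runx1 (-1.05 ± 0.20), Spi1, which encodes PU.1 (-1.24 ± 0.27), Cebpd (-1.43 ± 0.45) and Cebpe (-0.99 ± 0.34).

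Cebpe, the factor of specific granule genes, had 4.29 and 3.64 CPM in low-density and 8.46 and 7.27 CPM in high-density H2R-deficient libraries. Wild-type libraries held 5.10 and 6.96 CPM at low density, against 12.7 and 6.13 CPM at high density, with overlap. In wild-type low-density cells the lower factors were Cebpb (-0.72 ± 0.20), Runx1 (-0.70 ± 0.20) and Gfi1, a repressor needed for granulocyte maturation (-1.14 ± 0.30). These are 3 of the 8 factors, where 4.15% of all genes were lower. EdgeR called 0 genes of these 3 lists between genotypes at either density and 0 for the difference of density effects. At an unadjusted p under 0.05 the granule and vesicle list had 6 lower genes at low density, and 1 higher and 5 lower at high density, of 20 genes, where 21.0% and 18.7% of all genes passed in either direction.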

How the data were processed

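Raw counts of reads per gene were deposited, 1 table per library in the layout of featureCounts per the file headers, with no normalization. Per the submitters' processing notes the build was GRCm38 and the tools were STAR 2.5.2b, Trimmomatic 0.36, Subread 1.5.2 with its featureCounts, and bcl2fastq 2.17.1.14. Library preparation followed standard Illumina protocols per the labels' protocols. No source used here gives the strand setting or the treatment of reads with several mapping places, so reads of overlapping genes and of near copies may be misassigned.

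Symbols from GENCODE M21 were matched to 48970 of 49315 identifiers. EdgeR 4.0.16 (R 4.3.3) kept 14909 genes by filterByExpr, scaled libraries by TMM (factors 0.742 to 0.808 at high and 1.11 to 1.49 at low density) and fitted 1 mean per group to all 8 libraries with a robust quasi-likelihood model, with 4 residual degrees of freedom (common coefficient of biological variation 0.236). Adjusted p-values are Benjamini-Hochberg over all tested genes. SE is the absolute log2 fold change divided by the square root of F. CPM are over TMM-scaled library sizes. With 2 libraries a group no exact permutation p could be under 0.333.

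Within groups, libraries differed by more than sampling noise (chi-square per degree of freedom 36 to 50.7, r = 0.973 to 0.98 across genes), so none was treated as a copy. Alternatives were RLE size factors, total counts, no filter on low counts, DESeq2 1.42.0, limma-voom (limma 3.58.1), the compared groups only, each library left out, a replicate block and, added after the data were seen, scaling to 11 mature neutrophil markers. The test was checked on simulated counts with 100 planted changes of 2-fold and 100 of 4-fold among 14909 genes. Far more genes were called with density in the data, 8044 in H2R-deficient and 1888 in wild-type cells. The adjustment of p-values depends on that number, so the simulated rates do not carry over to the density comparisons. Of planted 2-fold changes it called 17% to 27% between 2 groups and 2% for the difference of density effects. For 4-fold changes these were 56% to 74% and 36%. False calls were 5 of 78 for density in H2R-deficient and 15 of 100 in wild-type cells. They were 16 of 103 between genotypes at low and 11 of 112 at high density, and 4 of 42 for the difference of density effects. All 32 granule genes were named, and of other lists up to 4 genes of lowest adjusted p in a comparison, plus the members of small counts, except for some that are not reported here. The granule genes and lists were chosen with earlier results of these data known.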

Additional observations from a re-analysis of the deposited data

How the results depend on the processing

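In H2R-deficient cells 14 of the 17 density calls held when any 1 library was left out, the others being Ctsc (6 of 8 fits), Orm1 (5 of 8) and Lyz2 (3 of 8), and scaling changed most of them. The 16 lower and 1 higher granule genes became 5 and 2 with total counts only and 0 and 10 when scaled to mature neutrophil markers, and ranged over 13 to 16 lower and 1 higher when 1 library was left out (all genes 5501 to 8398, against 8044). Among values called under either scaling, the sign changed with total counts only for Ctsc (0.11), Lyz2 (0.0025), Slpi (0.021) and Orm1 (0.042). Of such values the sign changed under the marker scaling for Ctsc (0.82), Ltf (0.99), Camp (1.08), Lcn2 (0.29), Mmp8 (0.095), Cd177 (0.21), Hp (0.22), Olfm4 (0.086), Lyz2 (0.75), Mmp25 (0.30), Cd63 (1.17), Pglyrp1 (0.09), Slpi (0.76), Anxa1 (0.26), Qsox1 (0.052) and Orm1 (0.79), and for Slpi also with density in wild-type cells (0.16) and between genotypes at low density (0.83). Density values called under neither also changed sign, 5 in H2R-deficient and 10 in wild-type cells with total counts only, and 2 and 15 under the marker scaling. Between genotypes at low density 3 such values changed sign with total counts only and 15 under the marker scaling. At high density these were 0 and 1, and for the difference of density effects 4 and 9.

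In wild-type cells the 0 higher and 2 lower granule genes became 5 and 0 with total counts only, 4 and 4 with no filter on low counts, 1 and 4 by DESeq2, 5 and 0 under the marker scaling, and 0 lower with the compared groups only. Leaving out 1 library gave 0 to 2 higher and 0 to 1 lower. All genes called, 1888, became 4946, 3361 and 6683 with total counts, no filter and the marker scaling and 581 with the compared groups only, and ranged from 93 (without wild-type high-density library 2) to 1771 when 1 library was left out.

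Between genotypes at low density, the 0 calls became 4 higher under the marker scaling and 8 lower with no filter and 4 lower by DESeq2, with 0 to 1 lower when 1 library was left out. All genes called, 0, became 1360 with no filter, 915 by DESeq2, 8 by limma-voom and 5768 under the marker scaling (0 to 63 when 1 library was left out, with 63 without wild-type low-density library 2). At high density the 0 calls became 4 higher and 1 lower with no filter, 3 higher by DESeq2 and 3 higher under the marker scaling. All genes called, 31, became 73 with total counts, 1095 with no filter, 699 by DESeq2, 3 by limma-voom, 74 under the marker scaling and 0 with the compared groups only (0 to 34 when 1 library was left out). For the difference of density effects the 0 lower genes became 8 with no filter and 4 by DESeq2, and all genes called, 0, became 635 with total counts, 1210 with no filter, 990 by DESeq2 and 1437 under the marker scaling (0 to 3 when 1 library was left out).

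Library numbers recur in both populations of a genotype, but the labels do not say that a number marks a shared animal or day. Deviations of same-numbered libraries from their group means correlated at 0.326 in H2R-deficient and 0.155 in wild-type cells. With the number as a replicate block, 20 granule genes were lower and 1 higher in H2R-deficient cells, and 3 lower and 4 higher in wild-type cells, the higher ones being Serpinb1a (0.93), Ltf (1.18), Camp (1.06) and Ngp (0.85). For the difference of density effects the block called 3 lower, Ltf (-1.77), Ngp (-1.75) and Cd177 (-1.79), each at an edgeR adjusted p of 0.0438, and 28 of all genes. No paired analysis was possible between genotypes because they share 1 number only. The cause of these shifts was not tested. The 6 primary genes with under 10 counts per library could not be tested at this depth.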
